A study of Mus musculus with 12 samples.

Results

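Splicing and nuclear RNA-binding genes were examined in myelinating oligodendrocytes, the cells that wrap axons of the brain in myelin. The group was a list of 10 mouse symbols, found in a deposited count table by their Entrez Gene identifiers. All 10 were among the 2398 genes analysed, and all 10 were among the 1484 genes that passed the filter on low counts. They are Sf3b1, Sf3b5 and Sf3a2 of the U2 snRNP, Snrpe and Snrpf of the Sm core, the hnRNP genes Hnrnpu, Hnrnph3 and Ptbp1, the splicing kinase gene Clk1 and the RNA helicase gene Dhx9.

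The cells came from brains of C57BL/6 mice that carried the Ndrg1-EGFP reporter and floxed Lmna alleles (Lmnafl/fl), and were sorted as GFP-positive cells that excluded propidium iodide. KO denotes CnpCre/+;Lmnafl/fl mice, in which Cre recombinase is made from 1 allele of the oligodendrocyte gene Cnp. WT denotes Cnp+/+;Lmnafl/fl mice, which have floxed Lmna but no Cre. Lmna encodes the A-type lamins, which line the inside of the nuclear envelope. Cre and the number of intact Cnp copies also differ between the genotypes, beside the intended loss of Lmna. Lmna itself was not analysed here, so its recombination was not checked in these libraries. The age is given both as postnatal day 60 and as 8 weeks. Each genotype had 3 biological replicates, and the labels do not say whether animals were pooled.

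Most introns are removed by the spliceosome, which is built from small nuclear RNAs and their proteins. Sm proteins form a ring around most of the spliceosomal RNAs, and the U2 snRNP, with its SF3a and SF3b parts, marks the branch point inside the intron. The hnRNP proteins coat new transcripts and steer the choice of exons, and CLK kinases phosphorylate SR proteins, a family of splicing factors. Lamins line the nucleus in which all of this takes place.

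The values below are CPM, the count of a gene relative to the total over the genes of the table, scaled by TMM factors. The table covers chromosome 1 and chromosome 10 up to 111.3 Mb. Each replicate was read in 2 libraries, whose counts were summed, giving 3694551 to 6093336 counts per replicate. These totals are over the genes analysed here and do not give the full sequencing depth. The 10 genes together took 1.07% to 1.42% of those counts. Over the 10 genes the 2 libraries of a replicate differed by no more than sampling noise would give (chi-square p from 0.177 to 0.728 for the 6 replicates). Counts per gene and replicate ran from 281 to 34145, which puts the counting error of a typical replicate between 0.619% for Hnrnpu and 5.12% for Snrpf. In 9 of the 10 genes the spread between replicates was larger than this counting error in both genotypes. For Sf3a2 in KO it was smaller, 1.73% against 2.67%.

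Of 23 oligodendrocyte markers only Adamts4, Nfasc and Sgk1 were in the table, and they summed to between 28780 and 60665 CPM in KO and between 22312 and 56524 CPM in WT, with Sgk1, which stress hormones induce, the largest part of each sum. Adamts4 stood at 8941, 9521 and 9693 CPM in KO replicates 1 to 3 and at 7089, 6114 and 6538 CPM in WT replicates 1 to 3, and Nfasc at 5837 to 7399 CPM in KO and 4204 to 5360 CPM in WT. Both were higher in every KO replicate than in every WT replicate and neither passed the edgeR test (Benjamini-Hochberg adjusted p = 0.504 for Adamts4 and 0.927 for Nfasc). Mbp, Mog and other defining myelin genes were not analysed here. The 4 microglial markers in the table (of 12 listed) summed to 88.3 to 372 CPM in KO and 91.6 to 165 CPM in WT. All 4 were highest in KO replicate 2. Ptprc, named after its values were seen, stood at 65.5, 106 and 14.9 CPM in KO replicates 1 to 3. In WT replicates 1 to 3 Ptprc stood at 24.1, 9.93 and 16.9 CPM (log2 fold change 1.87, edgeR adjusted p = 0.927). The 3 astrocyte markers (of 12) summed to 484 to 1095 CPM in KO and 356 to 799 CPM in WT. The 7 vascular and fibroblast markers (of 16) summed to 965 to 1129 CPM in KO and 761 to 977 CPM in WT. Lamc1 was the largest part of each of these sums. Over the 6 replicates Dcn ran from 28.8 to 181 CPM and Fn1 from 38.5 to 330 CPM. The ranges of the genotypes overlapped in all the marker sums above and in those that follow. The 4 neuronal markers (of 14) summed to 222 to 303 CPM in KO and 230 to 516 CPM in WT, with Map2 the largest part of each sum. The 2 progenitor markers (of 10) summed to 12.2 to 95.6 CPM in KO and 0.497 to 36.5 CPM in WT. Rgs5, Lum, Kcnh1 and Neu4 were at 0 in at least 1 replicate. Whether these cells had a part in the values of the splicing genes was not tested. In sorted bulk samples, fewer cells of a type and less RNA per cell cannot be told apart.

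The sequences upstream of the Sm gene pair are shown because Snrpe had the lowest log2 fold change of KO over WT of the 10 genes, -0.37, and Snrpf, its partner in the ring, had one of -0.01. A difference between the genes was not shown: the ratio of their counts gave an exact two-sided permutation p of 0.2 between the genotypes, where the smallest possible is 0.1. Each is the 250 bases before the gene's start in RefSeq on GRCm38.p6, read 5′ to 3′ on the strand of the gene, which is the minus strand for both. The window of Snrpe is chr1:133610281-133610530 and that of Snrpf is chr10:93589659-93589908. Capitals mark matches, on either strand, to CCAAT or to GGGCGG or to CGGAAG or to TATAAA, and no match overlaps another.
Snrpe: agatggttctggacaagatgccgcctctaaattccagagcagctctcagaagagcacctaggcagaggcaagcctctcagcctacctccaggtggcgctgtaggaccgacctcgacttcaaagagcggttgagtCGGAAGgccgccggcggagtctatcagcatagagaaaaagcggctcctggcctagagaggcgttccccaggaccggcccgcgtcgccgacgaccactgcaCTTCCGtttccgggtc
Snrpf: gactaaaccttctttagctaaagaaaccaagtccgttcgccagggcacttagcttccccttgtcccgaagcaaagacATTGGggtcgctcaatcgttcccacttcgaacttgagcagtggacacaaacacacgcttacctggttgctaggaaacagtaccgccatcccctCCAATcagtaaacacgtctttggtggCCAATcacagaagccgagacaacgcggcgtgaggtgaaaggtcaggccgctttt

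The windows had no motif in common. Snrpe had 2 matches to CGGAAG, letters bound by ETS-family factors, and Snrpf had 3 matches to CCAAT, letters bound by NF-Y. RefSeq windows were matched for 8 of the 10 genes. Those of Sf3b1, Hnrnph3 and Dhx9 reached into the RefSeq span of the gene given below. That of Hnrnpu, chr1:178337816-178338065, lay wholly inside it, so not all of the sequence counted here is upstream of the gene. CGGAAG was present in 4 of these 8, Sf3b1, Sf3a2, Snrpe and Dhx9, and in 13.6% of all 32851 windows of that length. GGGCGG, the GC box, was present in 5 of the 8, Sf3b1, Sf3a2, Hnrnpu, Hnrnph3 and Dhx9, and in 32.7% of all windows. CCAAT was present in 2 of the 8, Snrpf and Ptbp1, and in 33.8% of all windows, and TATAAA in 0 of the 8 and 12.4% of all windows. GC content ran from 52.0% for Snrpf to 73.6% for Hnrnpu and Hnrnph3. The set of all windows was not matched to the 8 in GC content or gene type, and the shares were not tested.

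The comparison of KO with WT asked whether transcripts of the splicing apparatus differ between oligodendrocytes of the KO and WT genotypes. Snrpe was lower in every KO replicate than in every WT replicate, by a fold of 0.773, and the other 9 genes overlapped between the genotypes. By the quasi-likelihood test of edgeR, adjusted over the 1484 genes after Benjamini and Hochberg, 0 of the 10 passed an adjusted p of 0.05, where 0% of all genes tested passed. DESeq2 and limma-voom also called 0 of the 10. At an unadjusted edgeR p under 0.05 there was 1 of the 10, Snrpe, where 3.98% of all genes tested were under it in either direction and 1.28% were under it and lower in KO. The genotypes did not overlap in 1 of the 10, again Snrpe, and in 8.49% of all genes tested. Their median log2 fold change was -0.04, beside -0.01 for all genes tested. The 10 genes are a chosen list, so these counts describe them and carry no test of their own.

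**Figure D1:**
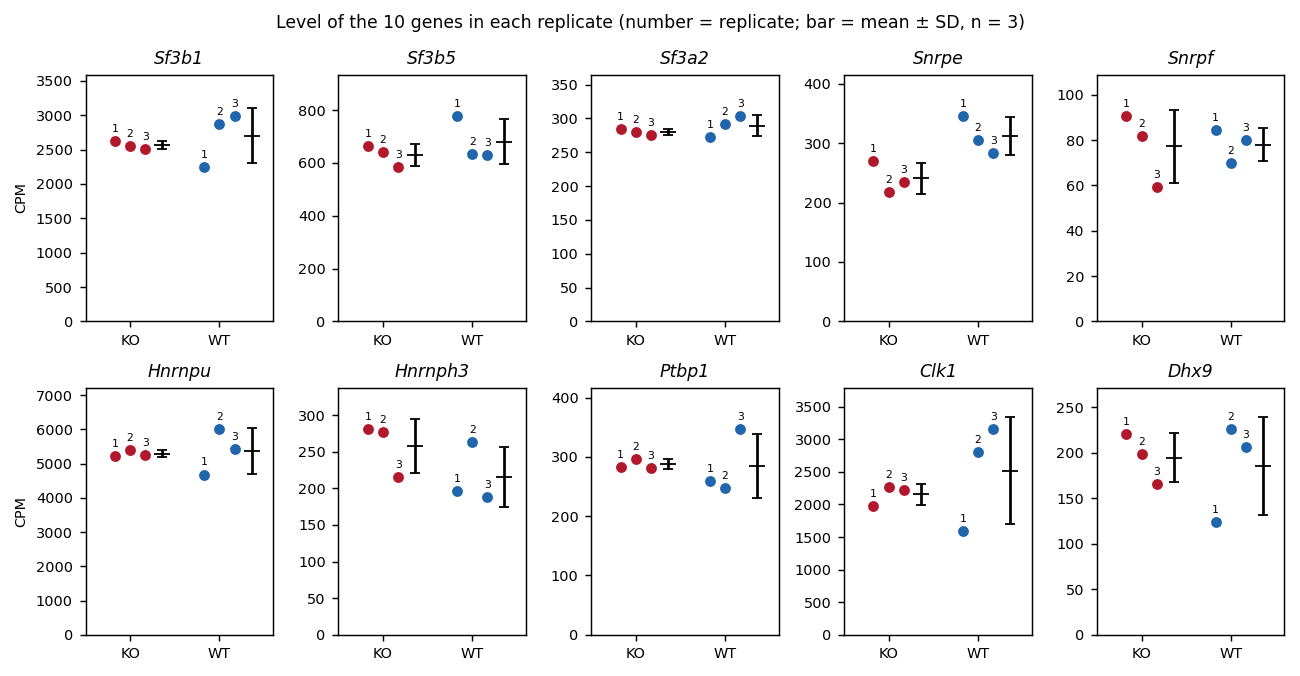
Level of each of the 10 genes in CPM (vertical axes, each starting at 0) in the 3 KO and 3 WT replicates, numbered, with the mean ± SD of each genotype beside them. The KO replicates of Snrpe, 218 to 269 CPM, all lie below the WT replicates, 284 to 346 CPM, and the genotypes overlap in the other 9 panels.

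Snrpe encodes SmE, a subunit of the ring that holds the spliceosomal RNAs, and the gene lies on the minus strand at chr1:133603871-133610280 (GRCm38). It stood at 269, 218 and 235 CPM in KO replicates 1, 2 and 3 and at 346, 305 and 284 CPM in WT replicates 1, 2 and 3. The highest KO value was thus below the lowest WT value. All KO replicates were below all WT replicates in 4.04% of the genes tested. The means were 241 ± 25.7 CPM in KO and 311 ± 31.4 CPM in WT (SD, n = 3 each), with a log2 fold change of -0.37 ± 0.14 (SE) and a 95% interval from -0.69 to -0.06. The edgeR adjusted p was 0.927 (unadjusted p = 0.0248), and the adjusted p ran from 0.820 to 1.00 over 15 alternative analyses in edgeR, DESeq2 and limma-voom, so the difference did not pass the threshold in any of them. The transcript of Snrpe is short, at most 669 bases in GENCODE M21. The 78 tested genes whose longest transcript is under 1 kb had a median log2 fold change of -0.09, with 25 of them above 0, and the 596 genes of 4 kb and over had a median of 0.00. The part of transcript length in the Snrpe difference was not tested.

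Snrpf encodes SmF, which sits beside SmE in the same ring; its gene lies on the minus strand at chr10:93583029-93589658. It stood at 90.8, 81.8 and 59.4 CPM in KO replicates 1 to 3 and at 84.3, 69.8 and 80.1 CPM in WT replicates 1 to 3. KO replicate 3 was the lowest of the 6 and KO replicate 1 the highest, so all WT values lay within the range of the KO values. The log2 fold change was -0.01 ± 0.23 (SE; edgeR adjusted p = 0.994), with a 95% interval from -0.53 to 0.50, or folds of 0.691 to 1.42. Snrpf lies on the strand opposite to Ccdc38, whose exons overlap it but which stood at only 0.518 ± 0.577 CPM in KO and 1.32 ± 0.364 CPM in WT (SD, n = 3 each).

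The ratio of Snrpe to Snrpf counts within a replicate does not depend on the scaling between libraries. It was 2.96, 2.67 and 3.95 in KO replicates 1 to 3 and 4.10, 4.37 and 3.54 in WT replicates 1 to 3. KO replicate 3 lay among the WT values. The log2 ratio was lower in KO by a mean difference of -0.34, with exact two-sided permutation p = 0.2, where 3 replicates against 3 cannot give less than 0.1, and 0.6 after adjustment over the 4 ratios computed. These ratios were chosen after the values had been seen. The other Sm and LSm genes of the table were Snrpd3, which encodes SmD3, and Lsm7, a subunit of the related LSm ring of the U6 snRNP. Snrpd3 stood at 1166 ± 15.1 CPM in KO and 1256 ± 202 CPM in WT, and Lsm7 at 477 ± 60.7 CPM in KO and 489 ± 26.3 CPM in WT (SD, n = 3 each). All 4 Sm and LSm genes tested had a log2 fold change below 0, as did 750 of all 1484 genes tested. The median of the 4 was -0.07, though the value of Snrpf turned above 0 without KO replicate 3, WT replicate 1 or WT replicate 3. In edgeR 0 of the 4 were called in either direction.

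The 3 U2 snRNP genes tested, of 34 listed for the U1 and U2 snRNPs, had log2 fold changes from -0.11 to -0.05, though that of Sf3b1 turned to 0.01 without WT replicate 3. Sf3b1 encodes the largest SF3b subunit, which clamps the branch point region, and its gene lies on the minus strand at chr1:54985169-55027501. It stood at 2626, 2545 and 2511 CPM in KO replicates 1 to 3 and at 2244, 2872 and 2992 CPM in WT replicates 1 to 3. All 3 KO values lay between the lowest and the highest WT value. Its log2 fold change was -0.08 ± 0.13 (SE; edgeR adjusted p = 0.994), and the 95% interval from -0.36 to 0.21 corresponds to folds of 0.778 to 1.15.

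Sf3b5 lies on the plus strand at chr10:13008450-13009183 and Sf3a2 on the plus strand at chr10:80798735-80804922. Sf3b5, a small SF3b subunit, stood at 663, 643 and 584 CPM in KO replicates 1 to 3 and at 779, 633 and 631 CPM in WT replicates 1 to 3. WT replicate 1 was above the other 5, which lay close together. Sf3a2, a subunit of SF3a, stood at 285, 280 and 275 CPM in KO replicates 1 to 3 and at 273, 291 and 304 CPM in WT replicates 1 to 3. It had the narrowest range of the 10 genes, with its highest value 1.11 times its lowest. The log2 fold changes were -0.11 ± 0.12 for Sf3b5 and -0.05 ± 0.11 for Sf3a2 (SE), both with an edgeR adjusted p of 0.994. Sf3a2 overlaps exons of Plekhj1 on the other strand, which stood at 766 ± 134 CPM in KO and 817 ± 148 CPM in WT (SD, n = 3 each).

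Ratios within the U2 snRNP varied less among KO than among WT replicates. Sf3b5 to Sf3b1 was 0.252, 0.253 and 0.232 in KO replicates 1 to 3 and 0.347, 0.220 and 0.211 in WT replicates 1 to 3. Sf3a2 to Sf3b1 was 0.109, 0.110 and 0.110 in KO replicates 1 to 3 and 0.122, 0.101 and 0.102 in WT replicates 1 to 3. In both ratios WT replicate 1 was the highest and the other WT replicates the lowest, so that the KO values lay between them. The exact two-sided permutation p was 1 for both.

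Among the hnRNP genes, Hnrnpu encodes a large protein, also called SAF-A, that binds nascent RNA and chromatin. The gene lies on the minus strand at chr1:178321108-178338891 and had the most counts of the 10. It stood at 5211, 5404 and 5241 CPM in KO replicates 1 to 3 and at 4679, 6008 and 5420 CPM in WT replicates 1 to 3. The KO values lay between the WT extremes, with a coefficient of variation of 1.96% in KO and 12.4% in WT. The log2 fold change was -0.02 ± 0.12 (SE; edgeR adjusted p = 0.994), with an interval from -0.29 to 0.25. Exons of Cox20 on the other strand overlap Hnrnpu, and Cox20 stood at 218 ± 26.8 CPM in KO and 247 ± 14.0 CPM in WT (SD, n = 3 each).

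Hnrnph3, a member of the hnRNP H family, lies on the minus strand at chr10:63014664-63023980. It stood at 281, 277 and 215 CPM in KO replicates 1 to 3 and at 196, 263 and 188 CPM in WT replicates 1 to 3. It had the highest log2 fold change of the 10 genes, 0.26 ± 0.18 (SE; edgeR adjusted p = 0.994), with an interval from -0.14 to 0.66. KO replicate 3 lay below WT replicate 2, so the genotypes overlapped. Its ratio to Hnrnpu was 0.0540, 0.0513 and 0.0410 in KO replicates 1 to 3 and 0.0419, 0.0438 and 0.0346 in WT replicates 1 to 3 (exact two-sided permutation p = 0.3, and 0.6 after adjustment over the 4 ratios). Rufy2, whose exons overlap Hnrnph3 on the other strand, stood at 788 ± 34.4 CPM in KO and 732 ± 48.8 CPM in WT (SD, n = 3 each). No source used here says whether reads were assigned by strand, and reads of overlapping exons may belong to either gene.

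Ptbp1 encodes the polypyrimidine tract-binding protein, which represses many neuronal exons, and lies on the plus strand at chr10:79854432-79864435. It stood at 283, 297 and 282 CPM in KO replicates 1 to 3 and at 259, 248 and 347 CPM in WT replicates 1 to 3. WT replicate 3 was the highest and the other WT replicates the lowest, with the KO values between. The log2 fold change was 0.01 ± 0.15 (SE; edgeR adjusted p = 0.994). Its sign turned without KO replicate 2, WT replicate 1 or WT replicate 2, so no direction is given. Exons of Plppr3, E130317F20Rik and Gm17134 overlap Ptbp1 on the other strand. Plppr3 stood at 207 ± 50.5 CPM in KO and 142 ± 39.5 CPM in WT, and E130317F20Rik at 11 ± 2.62 CPM in KO and 12.1 ± 2.73 CPM in WT (SD, n = 3 each).

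Clk1 was the only splicing kinase gene of the 15 listed that was tested. It encodes a kinase of SR proteins, and its own transcripts are known in mouse and human cells to be kept partly unspliced in the nucleus. The gene lies on the minus strand at chr1:58411988-58424088. Clk1 stood at 1972, 2270 and 2228 CPM in KO replicates 1 to 3 and at 1588, 2808 and 3159 CPM in WT replicates 1 to 3. The KO replicates lay together, between WT replicate 1 below and WT replicates 2 and 3 above. The means were 2157 ± 161 CPM in KO and 2519 ± 825 CPM in WT (SD, n = 3 each), and the log2 fold change was -0.22 ± 0.23 (SE; edgeR adjusted p = 0.994). It was -0.47 without WT replicate 1, which was the lowest of the 6, and -0.02 without WT replicate 3, which was the highest, with an adjusted p from 0.747 to 1.00 over the 15 alternatives in edgeR, DESeq2 and limma-voom. The counts are per gene, so spliced and intron-retaining Clk1 transcripts were not separated. Dyrk3, the other kinase gene of the list in the table, had 4 to 14 counts in KO and 1 to 13 counts in WT and was not tested.

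Clk1 had the largest spread of the 10 genes over the 6 replicates, with an SD of 0.35 log2 units, followed by Dhx9 with 0.33. Among 1430 other tested genes with a symbol, the 5 whose centred log2 CPM profile over the 6 replicates lay nearest to that of Clk1 were 9330159F19Rik, Zbtb37, Ppox, Trmt1l and Tbc1d8. Their root-mean-square distances were 0.0906, 0.108, 0.111, 0.115 and 0.134 log2 units, against a median of 0.415 over those genes. 9330159F19Rik stood at 826 ± 31.8 CPM in KO and 1003 ± 342 CPM in WT, and Ppox, an enzyme of haem synthesis, at 554 ± 65.4 CPM in KO and 582 ± 149 CPM in WT (SD, n = 3 each). All 5 were lowest in WT replicate 1 and highest in WT replicate 3, as Clk1 was. They were chosen for nearness to Clk1 on these same values, so the likeness is no separate result. It is a description of 6 samples.

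Of 20 listed immediate early genes, which tissue dissociation can induce, only Egr2, Ier5, Btg2 and Atf3 were in the table. These 4 summed to 393, 2425 and 1207 CPM in KO replicates 1 to 3 and to 1605, 285 and 3562 CPM in WT replicates 1 to 3. Btg2 was the largest part of each sum. WT replicate 3 was the highest for both the sum and Clk1, while WT replicate 2 was the lowest for the sum and the second highest for Clk1. The part of the dissociation response in Clk1 levels was not tested.

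**Figure D2:**
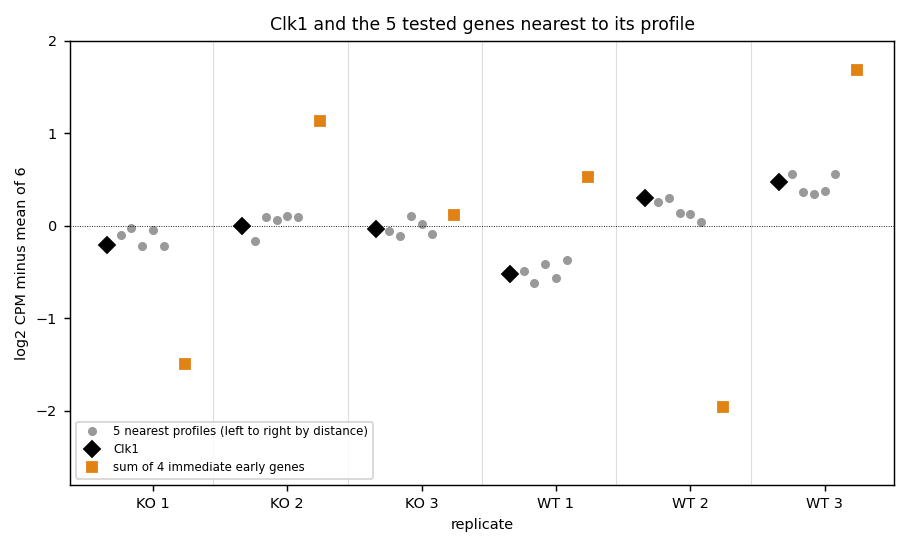
Log2 CPM minus the mean of the 6 replicates (vertical axis) for Clk1, for the 5 tested genes nearest to its profile and for the sum of 4 immediate early genes, in each KO and WT replicate. Clk1 was 0.52 log2 units below its mean in WT replicate 1 and 0.47 above it in WT replicate 3, and the sum of immediate early genes was lowest in WT replicate 2.

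Dhx9 encodes RNA helicase A, which unwinds structured RNA in the nucleus, and lies on the minus strand at chr1:153455756-153487688. It stood at 220, 198 and 166 CPM in KO replicates 1 to 3 and at 124, 226 and 206 CPM in WT replicates 1 to 3. WT replicate 1 was the lowest of the 6 and WT replicate 2 the highest. The log2 fold change was 0.07 ± 0.23 (SE; edgeR adjusted p = 0.994). It was -0.15 without WT replicate 1 and -0.03 without KO replicate 1, so no direction is given.

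WT replicate 1 was at an end of the range for most of the 10 genes. It was the lowest of the 6 replicates in 5 of them, Sf3b1, Sf3a2, Hnrnpu, Clk1 and Dhx9, and the highest in Snrpe and Sf3b5. Over all genes tested it was the lowest in 16.7% and the highest in 21.2%. The coefficient of variation was larger in WT than in KO in 8 of the 10 genes, and in 60.3% of all genes tested, with medians over the 10 genes of 7% in KO and 13.6% in WT, beside 14.7% in KO and 18.2% in WT over all genes tested. All genes tested include genes with few counts and were not matched to the 10 in level. In WT replicate 1 the tested genes under 1 kb had a median deviation of 0.15 log2 units above their mean over the replicates, and those of 4 kb and over a median of -0.05. Clk1, Dhx9, Hnrnpu and Sf3b1, with longest transcripts of 4865, 4616, 7640 and 6195 bases, were at -0.52, -0.58, -0.18 and -0.22 there. In KO replicate 3 the genes under 1 kb had a median deviation of -0.14, with Snrpe at -0.22 and Snrpf at -0.37. Snrpe was lowest, at -0.32, in KO replicate 2, where the genes under 1 kb had a median of 0.03. The part of length in these deviations was not tested.

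**Figure D3:**
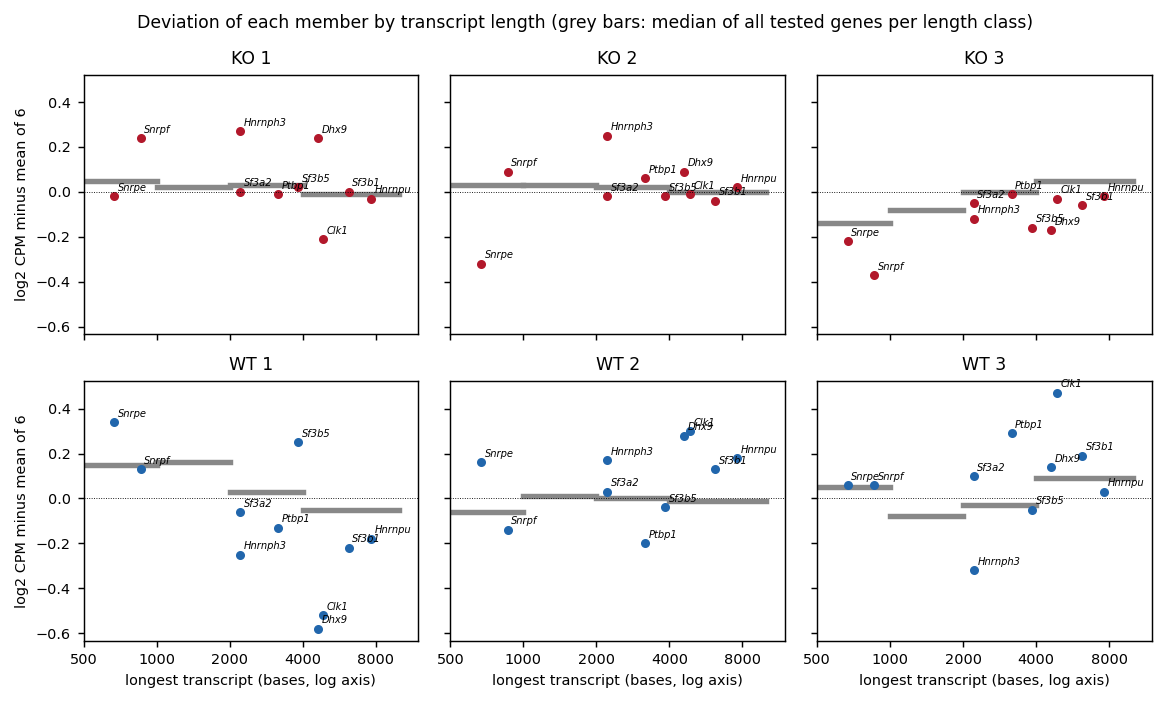
Log2 CPM of each of the 10 genes minus its mean over the 6 replicates (vertical axis) against its longest transcript in bases (log axis), in the KO replicates (top) and the WT replicates (bottom). Grey bars are medians of all tested genes under 1 kb, from 1 to 2 kb, from 2 to 4 kb and of 4 kb and over. In WT replicate 1 Snrpe lies at 0.34 and Dhx9 at -0.58.

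Levels of different genes can be compared only per length. Per kb of the longest transcript in GENCODE M21, the order over the 6 replicates was Hnrnpu, Clk1, Sf3b1, Snrpe, Sf3b5, Sf3a2, Hnrnph3, Snrpf, Ptbp1 and Dhx9. Hnrnpu had 692 ± 13.6 CPM per kb in KO and 703 ± 87.1 CPM per kb in WT, and Dhx9 had 42.2 ± 5.91 CPM per kb in KO and 40.2 ± 11.7 CPM per kb in WT (SD, n = 3 each). The ranges over the 6 replicates overlapped between neighbours from Hnrnpu down to Snrpe, and again from Sf3a2 down to Ptbp1. On this length Sf3b5 lay apart from its neighbours on both sides and Dhx9 from Ptbp1 above it. The Sm partners stood apart, with 360 ± 38.4 CPM per kb in KO and 465 ± 46.9 CPM per kb in WT for Snrpe, and 89.8 ± 18.8 CPM per kb in KO and 90.7 ± 8.70 CPM per kb in WT for Snrpf. These levels depend on the length used, which was varied after the data had been seen. On the union of exons, Snrpe had 175 ± 18.7 CPM per kb in KO and 227 ± 22.9 CPM per kb in WT, closer to Snrpf, whose length did not change. The mean over the 6 replicates was then 459 CPM per kb for Hnrnpu, 231 for Sf3b1, 201 for Snrpe and 19.8 for Dhx9, beside 697, 425, 413 and 41.2 on the longest transcript. The order on the union of exons had Snrpf above Hnrnph3, Sf3b5 overlapped Snrpe, and Dhx9 was again lowest and apart. For Sf3b5 the mean over the 6 replicates was 171 CPM per kb over its GENCODE transcript of 3841 bases and 893 CPM per kb over the single RefSeq exon of 734 bases. The second value is above the 697 of Hnrnpu on the longest transcript. The place of Sf3b5 in the order thus depends on which length is used. For Clk1 the mean was 481 CPM per kb over the longest transcript, 1302 over the longest protein-coding one and 287 over the union of exons.

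With the 10 genes included, 12 lists of splicing and RNA-binding genes held 370 symbols, of which 30 were in the table and 28 were tested. Of these 28, 0 were called higher and 0 lower in KO, in edgeR, DESeq2 and limma-voom alike, and 1, Snrpe, had an unadjusted edgeR p under 0.05. The log2 fold change was above 0 in 11 and below 0 in 17, beside 734 and 750 of all 1484 genes tested. The median of the 28 was -0.02, beside -0.01 for all genes tested. The KO replicates lay below all WT replicates in 3 genes, Snrpe, Stau2 and Polr2e, and above them in 0, where 4.04% and 4.45% of all genes tested did so. Stau2, a double-stranded RNA-binding protein, stood at 108 ± 3.22 CPM in KO and 119 ± 6.77 CPM in WT, and is named after its values were seen. Polr2e, a subunit shared by the nuclear RNA polymerases, stood at 911 ± 13.7 CPM in KO and 964 ± 38.2 CPM in WT (SD, n = 3 each). Their edgeR adjusted p was 0.994.

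Of the 51 listed genes of the Prp19 complex and catalytic spliceosome 3 were tested, with log2 fold changes from -0.15 to 0.18, and of the 30 listed SR family genes 1 was tested. Ppil4, a spliceosomal cyclophilin, stood at 579 ± 76.8 CPM in KO and 571 ± 68.7 CPM in WT. Cdc40, which acts at the second step of splicing, stood at 286 ± 46.4 CPM in KO and 252 ± 22.7 CPM in WT, and its log2 fold change of 0.18 had a 95% interval from -0.17 to 0.53. The KO replicates of both overlapped those of WT. Bclaf1, an SR-like protein, stood at 756 ± 45.8 CPM in KO and 689 ± 128 CPM in WT (SD, n = 3 each). The genotypes overlapped in Bclaf1 as well.

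Of the other RNA-binding genes, Pcbp3, a poly(C)-binding protein, stood at 194 ± 33.6 CPM in KO and 197 ± 26.6 CPM in WT. The nucleolar helicase genes Ddx18 and Ddx21 stood at 317 ± 21.1 and 191 ± 24.5 CPM in KO and at 347 ± 38.4 and 192 ± 15.7 CPM in WT. The genotypes overlapped in all of these. Cirbp, a cold-inducible RNA-binding protein, stood at 1035 ± 239 CPM in KO and 935 ± 216 CPM in WT. Khdrbs2, a splicing regulator of neurons, stood at 6.72 ± 3.32 CPM in KO and 7.45 ± 4.45 CPM in WT. Zc3h11a, a zinc finger protein of mRNA export, stood at 1146 ± 31.7 CPM in KO and 1232 ± 146 CPM in WT (SD, n = 3 each). None of these passed the edgeR test (adjusted p = 0.994 for each).

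**Figure D4:**
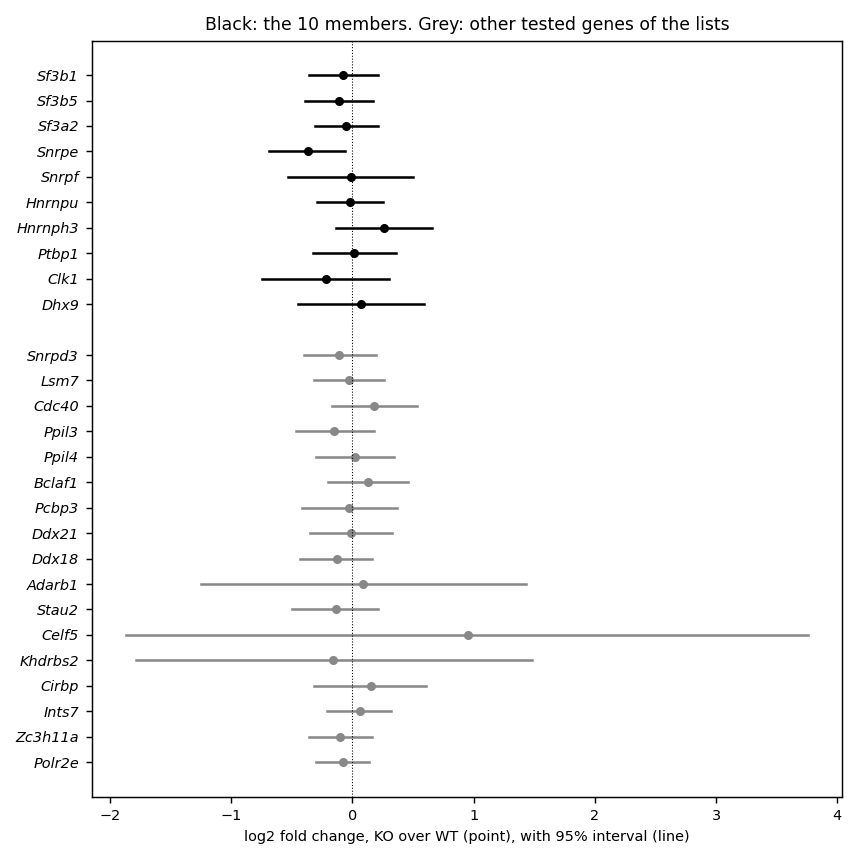
Log2 fold change of KO over WT (points) with its 95% interval (lines) for the 10 genes (black) and for other tested genes of the lists (grey). The interval of Snrpe, from -0.69 to -0.06, is the only one drawn that does not cross 0, before any adjustment over genes.

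The intervals give the range of differences that the values of each gene allow, before any adjustment over genes. Those of all 10 genes lay within 1 log2 unit of no change, from -0.75 for Clk1 to 0.66 for Hnrnph3, as did those of 63.6% of all genes tested. They lay within 0.5 log2 units for 5 of the 10, Sf3b1, Sf3b5, Sf3a2, Hnrnpu and Ptbp1, and for 37.7% of all genes tested. The genes tested were not matched to the 10 in level and include genes with few counts, whose intervals are wider. Among the 28 tested genes of the lists, those of Adarb1, Celf5 and Khdrbs2, which had means of 11.9, 2.36 and 7.08 CPM over the 6 replicates, reached beyond 1 log2 unit. Adarb1 and Celf5 are named after their values were seen.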

How the data were processed

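Counts per gene and library were deposited by the authors as raw whole numbers. The submitters' processing notes name build mm10, HISAT2, featureCounts, fastp, FastQC, CASAVA 1.8.2, SAMtools 1.4.1 and DESeq2 1.38.1, with no order. No source used here gives the annotation, the strand setting or the handling of reads shared between genes. One incomplete line of the table was left out. Of its identifiers, 172 matched no symbol and held 0.552% of the counts.

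The 2 libraries of each replicate were summed. The genotypes were compared in edgeR 4.0.16 (R 4.3.3) with TMM factors from 0.951 to 1.05, filterByExpr, a robust quasi-likelihood fit, a common biological coefficient of variation of 0.349 and Benjamini-Hochberg adjustment over 1484 genes at 0.05. The script was tested on simulated data. Lengths are from GENCODE M21, and coordinates and promoters from RefSeq. Intervals are 95%, and counting errors cover counting alone. Alternatives included DESeq2 1.42.0, limma-voom (limma 3.58.1), other scalings and filters, single libraries, a replicate block and leaving out replicates.

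The members, lists and tests were chosen with earlier results of these data known. Named genes were the members, the 2 tested genes of highest mean CPM outside the members in each list with fewer than 2 calls, and the 5 profiles nearest to that of the member with the largest spread. A gene that the rule names is not reported here. Exceptions, including overlapping genes and cell markers, are values given beside a result.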

Additional observations from a re-analysis of the deposited data

How the results depend on the processing

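Over 15 alternatives, 0 of the 150 recomputed fold changes of the 10 genes were called, the lowest adjusted p (edgeR, Benjamini-Hochberg) being 0.747, for Clk1 without WT replicate 1. DESeq2 called 6 genes of the table higher and 1 lower in KO, none in the splicing lists, where edgeR called 0 and 0. The cause was not tested. Unadjusted p under 0.05 was met by 59 genes in edgeR, 76 in DESeq2 and 62 in limma-voom. DESeq2 was run without the filter on low counts that the other methods used, so these counts are over different genes. With no filter beyond 1 count, edgeR gave 81. The log2 fold change kept its sign in every alternative for Snrpe (-0.46 to -0.29), Hnrnph3 (0.17 to 0.43), Clk1 (-0.47 to -0.02), Sf3b5 (-0.16 to -0.01) and Sf3a2 (-0.09 to -0.00242). It turned in 13 of the 150, of which 10 left out a replicate, so fewer samples were fitted. Leaving out a replicate gave -0.20 to 0.01 for Sf3b1, -0.15 to 0.14 for Snrpf, -0.11 to 0.07 for Hnrnpu, -0.07 to 0.19 for Ptbp1 and -0.15 to 0.24 for Dhx9. The second library alone gave 0.03 for Snrpf and -0.02 for Ptbp1, and library totals without TMM gave -0.02 for Ptbp1. Same-numbered replicates had r = 0.00071, -0.27 and 0.13 for numbers 1, 2 and 3, and differently numbered ones reached 0.31 and -0.31. Only KO replicate 3 correlated best with its own number. With 3 replicates per genotype, these values cannot tell whether a number stands for a shared batch. The labels give it only as a replicate number. The fit with a replicate block called 0 genes higher and 0 lower, and 49 genes had an unadjusted p below 0.05. The lengths behind CPM per kb were varied after seeing the data: Clk1 moved to the top by its longest coding transcript, and on the union of exons Snrpf stood above Hnrnph3. Over its single RefSeq exon of 734 bases Sf3b5 had 893 CPM per kb, above Hnrnpu at 697 on the longest transcript.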
